A study of Mus musculus with 2 samples.

Results

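The Dlk1-Meg3-Dio3 domain is an imprinted stretch of mouse chromosome 12, named here by 6 member genes (Dlk1, Meg3, Rtl1, Rian, Mirg and Dio3). The study mapped CTCF by ChIP-seq in lungs of B6NCrl mice at postnatal day 0, in 1 group of 2 replicates with no comparison group. The labels call them biological replicates 1 and 2, yet cite 1 biosample and 1 donor for both. This was not settled, so their differences may be technical only. The sex was not collected. Members are sites of the authors' optimal IDR list, which was derived from both replicates and keeps peaks for their reproducibility. How reproducibility was judged was not given. A site was a member if its summit lay between the first start and the last end of the 6 genes, or within 200000 bp outside them (chr12:109252823-110481097, mm10, 1228275 bp). There were 42 such sites, of 64732 on chromosomes 1 to 19 and X and 2557 on chromosome 12. Of the 42, 24 lay in the span of the member genes, 6 in the flank upstream of Dlk1 and 12 in the flank downstream of Dio3. They are numbered below in genome order.

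In an imprinted domain a gene is used mainly from the chromosome of 1 parent. Dlk1, a transmembrane protein related to Notch ligands, Rtl1, a protein derived from a retrotransposon, and Dio3, an enzyme that inactivates thyroid hormone, are used mainly from the paternal chromosome. The non-coding RNAs Meg3, Rian and Mirg come mainly from the maternal one, and Rian and Mirg host large clusters of snoRNAs and miRNAs. A control region methylated on the paternal chromosome is known to lie between Dlk1 and Meg3, and the start of Meg3 carries paternal methylation as well. CTCF is a zinc finger protein that halts cohesin at loop boundaries. Its motif has a direction, and methylation of CpG in it can block binding. The peak lists do not separate the parental chromosomes, so binding to 1 and to both could not be told apart, and lung tissue mixes cell types.

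Sequences under the sites on which the description turns are given first, each 5′ to 3′ on the strand named, with the 12-base CTCF core in capitals and 20 bases on each side. The first set holds the sites of highest signal in the flanks, in which a core with at most 1 mismatch was found.
Site 2, upstream of Dlk1, chr12:109393990-109394041, minus strand: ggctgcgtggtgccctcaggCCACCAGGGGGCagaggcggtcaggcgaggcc
Site 5, upstream of Dlk1, chr12:109437887-109437938, plus strand: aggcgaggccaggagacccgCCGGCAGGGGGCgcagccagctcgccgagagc
Site 32, downstream of Dio3, chr12:110373564-110373615, minus strand: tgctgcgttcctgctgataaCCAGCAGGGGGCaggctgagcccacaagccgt
Site 35, downstream of Dio3, chr12:110398579-110398630, minus strand: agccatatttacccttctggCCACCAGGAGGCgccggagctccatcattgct
Site 37, downstream of Dio3, chr12:110418933-110418984, plus strand: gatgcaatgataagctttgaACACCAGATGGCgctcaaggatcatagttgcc

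The second set holds sites at or between the member genes. Site 7 is shown beside site 8 because both lie in Meg3, although its best match has 2 mismatches and was not counted as a core.
Site 7, exon of Meg3, chr12:109542150-109542201, plus strand: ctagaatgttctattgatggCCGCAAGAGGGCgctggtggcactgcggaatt
Site 8, exon of Meg3, chr12:109543020-109543071, minus strand: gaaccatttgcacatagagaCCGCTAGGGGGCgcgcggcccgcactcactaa
Site 11, intron of Rian, chr12:109612752-109612803, plus strand: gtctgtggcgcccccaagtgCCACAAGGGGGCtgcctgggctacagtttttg
Site 12, beyond the 3′ end of Mirg, chr12:109750154-109750205, minus strand: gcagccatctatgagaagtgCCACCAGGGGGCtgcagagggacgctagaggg
Site 19, between Mirg and Dio3, chr12:109958890-109958941, minus strand: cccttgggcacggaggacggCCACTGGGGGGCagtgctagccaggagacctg

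The third set holds 4 sites between Mirg and Dio3 whose 12 core bases were identical. This was noticed after the values were seen.
Site 18, plus strand, chr12:109953083-109953134: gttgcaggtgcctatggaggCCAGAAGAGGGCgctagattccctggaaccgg
Site 20, plus strand, chr12:109985257-109985308: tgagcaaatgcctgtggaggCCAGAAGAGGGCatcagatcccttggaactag
Site 22, plus strand, chr12:110009306-110009357: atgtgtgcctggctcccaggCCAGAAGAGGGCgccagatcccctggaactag
Site 24, plus strand, chr12:110031487-110031538: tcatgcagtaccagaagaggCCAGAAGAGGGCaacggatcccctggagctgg

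The signal of a peak is the caller's measure of enrichment in the authors' own units. Its median was higher over each flank than over the span of the member genes. The flank sites nearest to the span were under the medians of their flanks. Site 6 had 52.9 in replicate 1 and 35.3 in replicate 2, and site 31 had 12.6 and 13.6. The value of a site in a replicate was that of the highest peak of that replicate with a summit within 100 bp. A site without such a peak was left out of the medians of that replicate. The domain with flanks had a median signal of 34.6 in replicate 1 and 32.3 in replicate 2 (40 of the 42 sites in each), against 40.8 and 37.5 over all listed sites. These medians move with the matching rule and the list, between 29.2 and 39.0. The 6 sites upstream of Dlk1 had medians of 104 and 100.03, and the 12 downstream of Dio3 had 75.6 and 79.0 (10 with a peak in both replicates). The 5 sites from Dlk1 to the end of Mirg had 41.6 and 44.1, above the medians over all listed sites. The 19 from there to the end of Dio3 had 24.5 and 18.6, under them. The median over the span was 32.2% of that over the flanks in replicate 1 and 23.3% in replicate 2. That comparison and the division into 4 stretches were chosen after the values were seen, and neighbouring sites are not replicates, so no test was made.

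**Figure D1:**
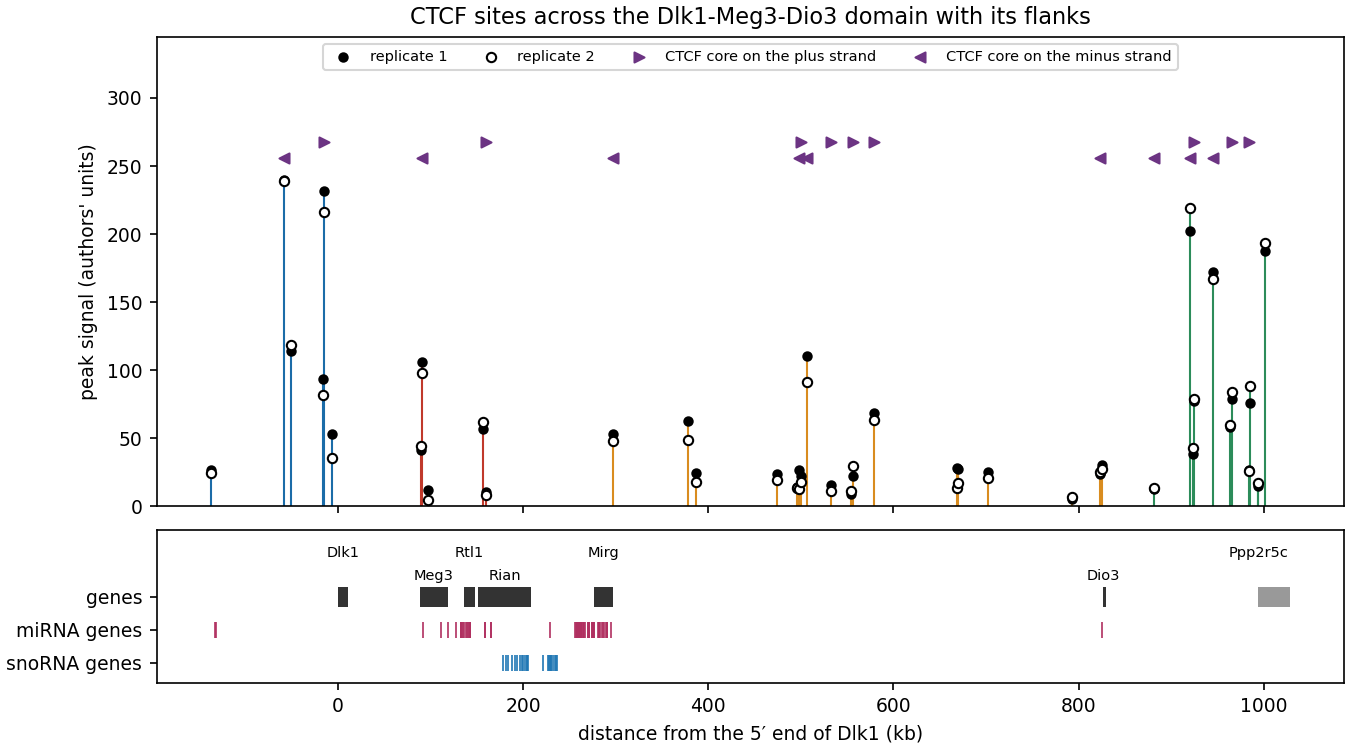
Signal of each CTCF site (y axis, authors' units) against its distance from the 5′ end of Dlk1 (x axis, kb), with replicate 1 as filled and replicate 2 as open circles, and triangles, at a fixed height, for the strand of the core. Line colours mark the stretches upstream of Dlk1 (blue), Dlk1 to Mirg (red), Mirg to Dio3 (orange) and downstream of Dio3 (green). Bars and ticks below show the member genes with Ppp2r5c, the miRNA genes and the snoRNA genes. The tallest sites stand outside the member genes, and the miRNA and snoRNA clusters lie in stretches with few sites.

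Of the 10 sites with the best mean signal rank, 8 lay in the flanks and 2 in the span. Site 2, 58.8 kb upstream of Dlk1 (chr12:109393862-109394145), had 239.8 in replicate 1 and 238.7 in replicate 2, and 99.2% and 99.3% of all listed sites were lower. It was the highest site of the domain in both replicates. Site 5, 14.9 kb upstream of Dlk1 (chr12:109437790-109438055), had 232 and 216. Site 32, 92.5 kb past the end of Dio3 (chr12:110373459-110373721), had 202 and 219. The replicates put sites 5 and 32 in opposite order, so these are not ranked against each other. Sites 2, 5 and 32 were the 3 sites of the domain that exceeded 95% of all listed sites in both replicates. Site 42, in an intron of Ppp2r5c, which encodes a regulatory subunit of protein phosphatase PP2A, had 187 and 194. Site 35 had 172 and 167. Both replicates placed site 42 above site 35, and both sites above the remaining domain sites.

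The other sites of this group were lower. Site 3, 51.4 kb upstream of Dlk1, had 114 and 118. Sites 19 and 8, the 2 in the span, had 111 and 91.0, and 106 and 97.9, so their order differed between replicates. Site 4, 16.4 kb upstream of Dlk1, had 93.5 and 81.9, and site 37 had 79.0 and 83.8. Sites 39 (75.6 and 88.2) and 34 (77.3 and 79.0) were just outside the group, and site 4 ranked behind site 39 in replicate 2. Among the remaining flank sites, site 36 had 58.1 and 59.7, and site 33 had 38.7 and 42.7. Sites 1 (26.4 and 24.1) and 38 (26.4 and 25.8) were near the level of the interior. The flanks thus held weak sites as well as the strongest ones. Sites 4 and 5 lay 1498 bp apart. Sites 2 and 3 lay 7374 bp apart, and 64.3% of all gaps were as long. Site 3 was well under site 2, with 76.5% and 79.1% of all listed sites lower in replicates 1 and 2. Site 4 was well under site 5, with 71.1% and 69.3% lower.

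**Figure D2:**
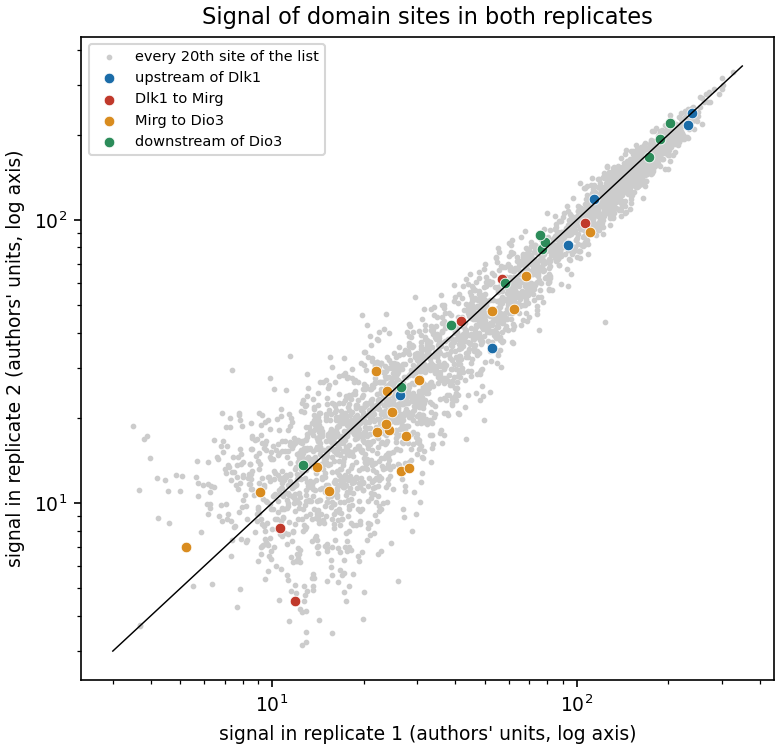
Signal in replicate 1 (x axis) against replicate 2 (y axis), authors' units, both on log axes, for the 39 domain sites with a peak in both, coloured by stretch, over every 20th site of the whole list in grey. The line marks equal values. The 10 shown sites downstream of Dio3 lie closest to it, and the low sites scatter most. Sites 40 and 41 of that stretch lack a peak in 1 replicate and are not shown.

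The list was derived from these same 2 replicates by a reproducibility rule not given in detail. Likeness between them may thus be partly set by that choice. Of the 42 sites, 39 had a peak in both replicates, against 97.5% of all listed sites. Of their 741 pairs 681 (91.9%) were ordered alike, against 91.4% of pairs over the whole list. The log2 ratio of replicate 1 over replicate 2 had a median of 0.10 and an SD of 0.38 over the 39 sites, against 0.09 and 0.46 over all listed sites. It was above 0 at 24 sites and below 0 at 15. Its SD was 0.08 downstream of Dio3 (10 sites), 0.23 upstream of Dlk1 (6), 0.41 from Mirg to Dio3 (18) and 0.62 from Dlk1 to Mirg (5). The first value leaves out sites 40 and 41, which had a peak in 1 replicate each. The widest ratio was that of site 9 in Meg3 (1.39 on the log2 scale), one of the lowest sites. The other sites from Dlk1 to Mirg had ratios from -0.11 to 0.37, so the SD there rests largely on site 9. Sites 23, 40 and 41 lacked a peak in 1 or both replicates. Sites 22 and 23 were 200 bp apart, as were sites 40 and 41 at 204 bp, so each pair may stand for 1 bound place. Site 23 had no peak within 100 bp in either replicate. Site 40 had one in replicate 1 alone (14.6) and site 41 in replicate 2 alone (17.0).

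**Figure D3:**
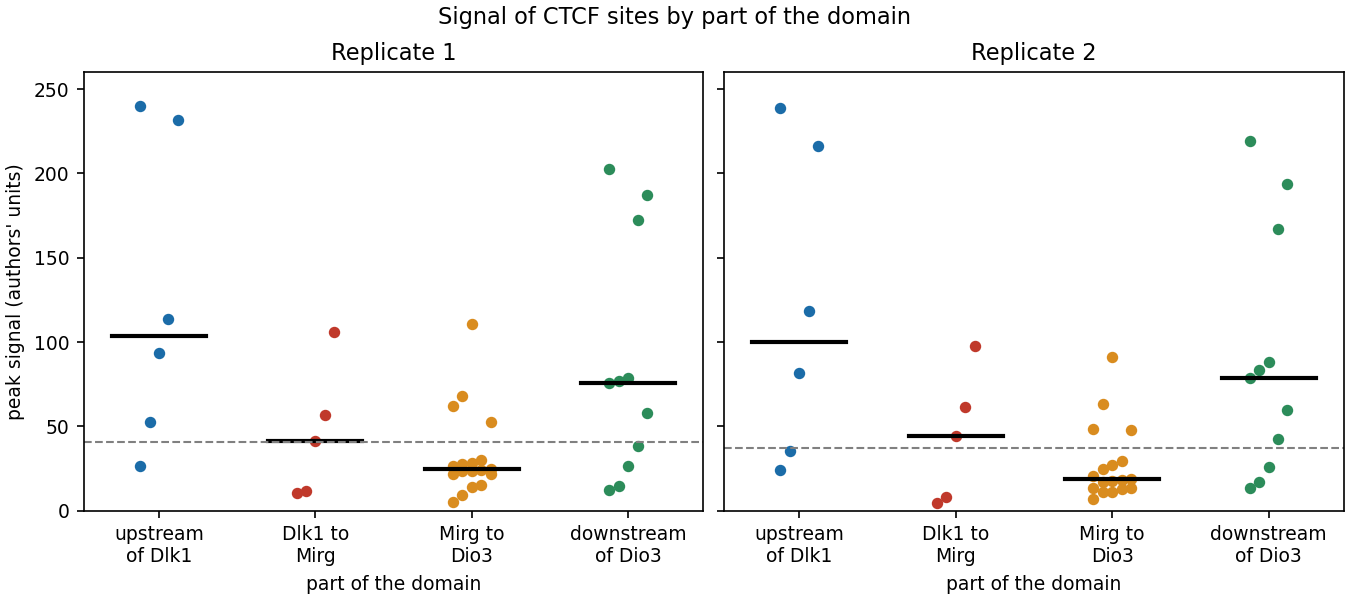
Signal of each site (y axis, authors' units) in the 4 stretches of the domain, with replicate 1 on the left and replicate 2 on the right. Black bars are medians and the dashed line is the median over all listed sites. Most sites from Mirg to Dio3 lie under the dashed line, and sites of the flanks reach above 200.

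The protein-coding members held no site within their bodies. Dlk1 (chr12:109452823-109463336, plus strand) had 0 sites, and the nearest to its start was site 6, 6571 bp upstream, with 52.9 in replicate 1 and 35.3 in replicate 2. Rtl1 (chr12:109589193-109600330, minus strand) had 0 as well, and the nearest was site 10, 8909 bp from its start. Inside Rtl1 the pooled list, which holds 300000 peaks and was not cut for reproducibility, had 5 peaks, 2 of them with a core. The one with the higher pooled signal (17.7) had 9.75 in replicate 1 and 6.62 in replicate 2. The other (pooled signal 12.5) had a peak in replicate 2 alone, of 8.74. Both were lower than most listed sites of the domain.

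Dio3 (chr12:110279068-110281097, plus strand) is 2030 bp long and held 0 sites and 0 pooled peaks. Site 30 lay 921 bp upstream of its start (chr12:110278007-110278286), in an exon of Dio3os, the non-coding RNA read from the opposite strand. It had 30.4 in replicate 1 and 27.3 in replicate 2. Site 30 was thus the site nearest to the starts of Dio3, Dio3os (25 bp) and Mir1247, a miRNA gene whose hairpin began 18 bp from the summit. Ppp2r5c, the remaining protein-coding gene of the stretch, had site 41 at 623 bp upstream of its start. With the limit of 1000 bp used here, 2 of 4 protein-coding genes (Dio3 and Ppp2r5c) had a site at an annotated transcription start, against 43.2% of all protein-coding genes.

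The start region of Dio3os is printed because the summit of site 30 falls in it (base 172 of the 300) and the best match to the core near it had 4 mismatches. Sequence is RefSeq's, GRCm38.p6, chr12:110278019-110278318, minus strand, 80.0% G or C with 53 CpG, and capitals mark the Mir1247 hairpin.
Dio3os start region: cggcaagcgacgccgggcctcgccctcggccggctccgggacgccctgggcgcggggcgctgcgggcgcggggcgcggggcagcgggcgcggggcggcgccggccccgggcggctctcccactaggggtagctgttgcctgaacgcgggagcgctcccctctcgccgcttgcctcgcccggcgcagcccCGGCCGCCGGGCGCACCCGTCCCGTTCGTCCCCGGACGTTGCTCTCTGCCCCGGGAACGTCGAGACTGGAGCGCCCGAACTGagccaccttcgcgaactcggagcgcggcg

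Meg3 was the member with the most sites. Its body (chr12:109541001-109571726, plus strand) held 3. Site 7 (chr12:109542028-109542307) had 41.6 in replicate 1 and 44.1 in replicate 2. Site 8 (chr12:109542946-109543152) had 106 and 97.9. Both lay in annotated exons near the 5′ end, 1167 and 2045 bp inside it, and site 7 was 100 bp before an inner annotated start. Site 8 was above site 7 in both replicates. Site 9, in an intron, had 11.9 and 4.52 and was not in the conservative list. The core of site 8 held 2 CpG, counting 1 across its edge, as did the 2-mismatch match of site 7. Towards the 3′ end of Meg3 the conservative list had 2 further peaks that the optimal list did not keep, at summits 109564964 (8.76 and 7.97) and 109566799 (11.0 and 10.8). The second of these had a core.

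The stretch between the end of Dlk1 and the start of Meg3 (77.7 kb), where the control region is known to lie, held 0 listed sites. It had 14 pooled peaks, none with a core, and the highest reached 18.0 in the pooled list. That peak had 7.40 in replicate 1 and 9.41 in replicate 2, under the median of every stretch in both replicates. By pooled signal, listed sites 9 (16.8), 23 (5.76), 28 (13.1) and 41 (6.50) were lower than it. The other listed sites of the domain were higher. The same stretch holds mm799, a RefSeq biological region at chr12:109507924-109510969 drawn from the VISTA enhancer browser, and the nearest site to it was 31199 bp away.

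Rian and Mirg, the long host transcripts, span 57.8 kb and 19.7 kb. Beside the 24.6 sites per Mb over all chromosomes used, their counts of 2 and 0 do not show a scarcity. Rian (chr12:109603940-109661716) held 2, both in introns near its 5′ end. Site 10 had 57.1 and 61.7, and site 11 had 10.6 and 8.18. Site 11 was the lower in both replicates although it had a core, with 1 mismatch. The best match at site 10 had 2 mismatches and was not counted as a core. Site 11 lay 946 bp past the start of Mir1188. Mirg (chr12:109729764-109749460) held 0, and site 12 (chr12:109750043-109750322, 52.8 and 47.9) lay just past its 3′ end, 2219 bp from an annotated start. Of the 69 miRNA genes in the domain with flanks, 2 (Mir1188 and Mir1247) had a site within 1000 bp of the start, against 10.9% of all miRNA genes. Of 23 snoRNA genes none had one, against 12.5%. Of 19 long non-coding genes 2 did (Dio3os and, only through an inner annotated start, Meg3), against 17.4%. These small RNA genes lie in a few clusters and share their neighbourhood, so they are not independent of each other.

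**Figure D4:**
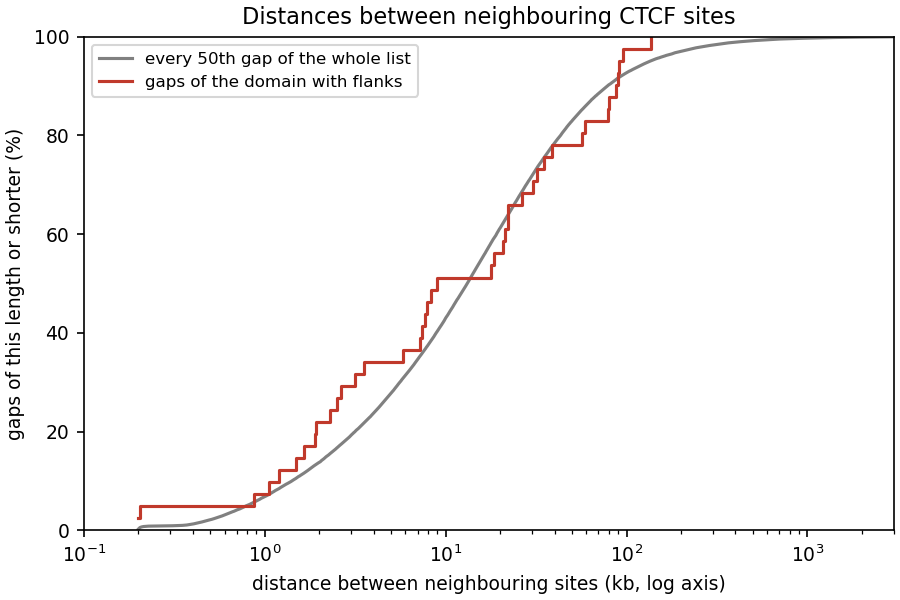
Share of gaps of a given length or shorter (y axis, %) against the distance between neighbouring sites (x axis, kb, log axis), for the 41 gaps of the domain with flanks in red and every 50th gap of the whole list in grey. The red line runs above the grey one at short distances, and its longest gap is 137 kb.

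The spacing of sites varied along the domain. The density was 34.2 sites per Mb over the domain with flanks and 29.0 over the span, against 21.3 on chromosome 12 and 24.6 over all chromosomes used. It was 16.9 per Mb from Dlk1 to Mirg and 60.0 downstream of Dio3. The 41 gaps had a median of 8.91 kb, against 13.2 kb over all neighbouring pairs. Of the 41 gaps, 9 (22.0%) exceeded 50 kb and made up 776 kb in all, against 17.1% of all gaps that long, a share near that of the list.

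The longest gap ran for 137 kb between site 11 in Rian and site 12 beyond Mirg, and 4.85% of all gaps were as long. It holds most of Rian, all of Mirg, 47 miRNA genes and all 23 snoRNA genes of the domain. Within it were 11 pooled peaks, of at most 9.67 in the pooled list, and none had a core. The highest peaks of the single replicates there reached 6.52 and 8.38. The second gap, of 95.9 kb, held Dlk1 and the stretch up to Meg3, and 7.72% of all gaps were as long. The gap around Rtl1 was 59.0 kb and held 16 miRNA genes and the 2 conservative-only peaks of Meg3. The gap from site 30 across Dio3 was 56.7 kb. Others of 79.0 to 90.8 kb contained none of the 6 members. Upstream of the domain, the previous listed site was 270361 bp before site 1, whereas the next one after site 42 was 35756 bp away.

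Between Mirg and Dio3, 19 sites lay in 532 kb, most of them of low signal. Sites 13 (62.3 and 48.4), 19 and 24 (68.4 and 63.5) were the highest there, together with site 12. Site 16 (14.0 and 13.5) lay in mm1456, the other VISTA element in the RefSeq annotation of the span (chr12:109946504-109950294), listed there as an enhancer in brain and neural tube. Sites 14 to 18 ranged from 14.0 to 26.5 in replicate 1 and from 13.0 to 19.1 in replicate 2, and their ranges overlap those of sites 25 to 27. Sites 20 and 21 had 15.3 and 11.1, and 9.16 and 10.9. Site 22 had 22.0 and 29.3. Sites 25 and 26 had 28.1 and 13.3, and 27.6 and 17.3. Site 27, in an intron of the non-coding gene 3110009F21Rik, had 24.8 and 20.9. Site 28 was the lowest in replicate 1 (5.22, and 6.98 in replicate 2). Sites 9, 21 and 28 were the 3 not in the conservative list, which held 39 of the 42, against 87.4% of all listed sites.

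The 12-base CTCF core motif was searched on both strands, within 50 bp of the summit, with at most 1 mismatch. It was present at 18 of 42 sites (42.9%, exact 95% binomial interval 27.7% to 59.0%, counting error only), against 48.3% of all listed sites and 1.28% of windows 1000 bp to either side. The share in the domain was thus close to that of the list. Among the 10 sites of best rank, 7 had one. A further 14 sites had a best match with 2 mismatches, and 10 had more. Sites 3, 4 and 42, all among the 10 of best rank, were without a core at this limit. Of the 18 cores, 9 were on the plus and 9 on the minus strand. In the flank upstream of Dlk1, site 2 was on the minus and site 5 on the plus strand. Downstream of Dio3, sites 31, 32 and 35 were on the minus strand and sites 34, 37 and 38 on the plus strand. The cores nearest the span on each side were therefore that of site 5 on the plus strand and that of site 31 on the minus strand. Site 31 was low (12.6 and 13.6), and sites 32 and 34 followed it on opposite strands. A CpG stood within or across the edge of 9 of the 18 cores, against 30.4% of all cores in the list. No methylation was measured in these files.

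The 4 sites with the same 12 core bases (18, 20, 22 and 24) all lay between Mirg and Dio3, on the plus strand and in repeat-masked sequence. Their printed windows of 52 bases were 61.5% to 75.0% identical in pairs. The windows include the 12 core bases by which the sites were picked, so part of this identity was set by that choice. The same bases stood at 6034 of all listed sites (9.32%), of which 92.7% were in repeat-masked sequence, so 4 of 42 is close to the share in the list. Of the 42 summits, 6 lay in repeat-masked sequence, against 19.5% of all listed sites. As background, mouse B2 repeats are known to have spread CTCF motifs. The class of the repeats was not examined here. Site 24 was the highest of the 4 in both replicates, and over all sites with these bases the medians were 27.1 and 24.3.

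By annotation, 30 of the 42 sites were intergenic, 9 were in introns and 3 were in exons of non-coding genes (sites 7, 8 and 30). None lay in a coding exon or UTR. The median GC content of the 101 bp around the summit was 58.9%, against 52.5% over all listed sites. Site 30 had 77.2%. The depth behind each signal is unknown, since the lists give no read numbers.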

How the data were processed

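Peak lists of CTCF ChIP-seq in newborn mouse lung (2 replicates) were used. Per the labels, coordinates are mm10. Per the deposited file descriptions, the authors made 1 peak list per replicate and 1 on both replicates pooled, each from alignments plus 1 file of unstated role, and derived the optimal and conservative IDR lists from these. For alignment, peak calling and IDR, the tools and cut-offs were not given in the sources used here. Each deposited signal is the authors' own value, and its scaling is not stated. It served to describe and rank peaks within a list, and for ratios of span to flanks and of replicate 1 to replicate 2. The ratio between replicates compares 2 lists and takes their scales as alike. The authors' −log10 q-value (at most 5.08) was used only to describe peaks. The summit is deposited as an offset from the peak start.

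Genes came from GENCODE M21, and sequence from RefSeq GRCm38.p6, the assembly that mm10 names. On other contigs the optimal list had 10 peaks, not analysed here. Repeat masking was read from the lower-case letters of the genome. A weight matrix over 32 positions, trained on exact cores outside chromosome 12, was an alternative to the core. No test between groups was possible with 1 group. The functions were tested on simulated data. The genes described are the 6 members, each protein-coding gene of the domain with flanks, and miRNA and snoRNA genes as counts. Sites described are those of the span and the 10 of best mean rank, and others are given by range or for their position. The sequence and values of 1 site are not reported here. Members and lists were chosen with earlier results of these data known. Alternatives tried were other lists, flanks, matching distances, mismatch limits, core windows and distances to starts, and each replicate left out. Tools were Python 3.11.15, numpy 2.4.6, pandas 2.3.3, scipy 1.17.1 and matplotlib 3.10.9.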

Additional observations from a re-analysis of the deposited data

Results flagged for a closer look

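The pooled list held 177 peaks in the domain with flanks, those at the listed sites included, and 109 of them lay more than 2000 bp from any site of the IDR lists. Of these 109, 9 held the CTCF core (8.26%, exact 95% binomial interval 3.85% to 15.1%), against 2 of 218 windows 1000 bp to either side (0.917%). Over all chromosomes used the shares were 7.99% and 0.779%, so the domain was close to the rest of the genome. The 9 peaks are not among the listed sites on which the site counts and medians of the report rest, although those in Rtl1 were described above. They included 2 in Rtl1, with a pooled signal of 12.5 and 17.7, and 3 in the non-coding gene Gm34667.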

How the results depend on the processing

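Of 47 recomputed values, 31 were classed as close to the reported ones and 16 as moved, under limits that differed by kind of result. Flanks of 100000 bp gave 33 sites in place of 42, which was classed as close. A change of the median log2 ratio from 0.10 to -0.03 was classed as close too. A median signal of 30.4 in place of 34.6 was classed as moved. Keeping only the 32366 listed sites of highest signal left 20 sites, 7 of them in the span, and the longest gap became 342083 bp, from site 24 to site 32 across Dio3. Counting every pooled peak cut the longest gap to 66648 bp. Flanks of 500000 bp gave 65 sites and no flanks 24. The median signal in replicate 1 was 29.2 with overlap in place of summit distance and 30.4 with the conservative list. In replicate 2 it was 39.0 with summits within 50 bp, 29.3 with overlap, 29.3 with the conservative list and 35.3 without sites close to a stronger one. The core stood at 16.7% of sites with no mismatch (12.4% of all listed sites) and at 76.2% with up to 2 (76.2% of all), so at 2 mismatches the count separates little. Genes with a site at a start numbered 7, and 3 within 500 bp or 16 within 5000 bp. With 1 start per gene they numbered 6, and Meg3 was no longer among them.

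Leaving out 1 replicate gave 40 to 41 sites, 22 in the span and a longest gap of 140934 to 140944 bp. For the ratio of span to flanks it only returned the values of the single replicates, 23.3% and 32.2%. These are no further check, although both are among the 31 values classed as close. Division of signals by the median over all sites turned the median log2 ratio from 0.10 to -0.03. The SD of 0.38 is the spread of single sites and does not measure the error of these medians. The ratio of span to flanks was recomputed under settings added after the data were seen. No paired analysis was possible because there was only 1 group. Depth is unknown. If the 2 replicates come from the 1 donor that the labels cite, they give no measure of variation between animals.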
